A study of Mus musculus with 20 samples.

Results

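The 35 genes described here encode proteins that copy DNA and divide the cell, and they were followed across the left ventricle of mice with and without heart-specific overproduction of a dominant-negative O-GlcNAcase. They were taken by name from the deposited table of each time point, and all 35 were found in both tables, which list 19872 genes at 2 weeks and 19985 genes at 24 weeks. The groups, each of 5 libraries and 20 in all, were Control and dnOGAh-Tg after 2 weeks on doxycycline food, which sets off the transgene, and Control and dnOGAh-Tg after 24 weeks; the protocol words the food for both groups together. O-GlcNAcase, encoded by Oga, removes the sugar O-GlcNAc from nuclear, cytoplasmic and mitochondrial proteins, and the study's title concerns lasting O-GlcNAc elevation, heart growth and mitochondrial function. The sources used here do not give the promoter behind the transgene, the alleles of the Control mice, or the age, sex and strain of the animals. Tissue was whole left ventricle and not sorted cells, so more cycling cells and more RNA per cycling cell cannot be told apart in any value below. Nothing in the labels says whether each library came from its own animal, so a p-value here speaks of library-to-library spread only, which may be technical.

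A dividing cell makes the proteins in question in a fixed order. Cyclin D responds to growth signals in G1, cyclin E opens S phase, the MCM helicase and its partners copy the DNA, cyclins A and B with Cdk1 bring the cell into mitosis, kinetochores and motors align the chromosomes under the spindle checkpoint, and a contractile ring completes cytokinesis. Most of these genes are kept silent in resting cells by the DREAM complex and are switched on by E2F factors and then by B-Myb and FoxM1. Most cardiomyocytes of the adult mouse heart have left the cell cycle, while fibroblasts, endothelial cells and immune cells keep the ability to divide.

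The promoters of the genes were searched for the letters that such factors are known to bind. RefSeq promoter windows of 250 bases before to 50 bases after the start, from build GRCm38.p6, were available for 29 of the 35 genes, and both strands were read for 3 kinds of element. A gene was counted when any of its windows held the element, and all 27025 genes had 32851 windows together. TTTGAA, the cell cycle homology region that recruits DREAM and B-Myb complexes, was found in 19 of 29 genes (65.5%), against 20.2% of all genes. CCAAT, which NF-Y binds, was found in 25 genes (86.2%), against 41.1%, and TTTGAA together with CCAAT in 17 (58.6%), against 8.97%. An E2F-type element was taken as the letters TTCCCGC, or in their place the letters TTGGCGC, the letters TTCGCGC, or finally the letters TTGCCGC. It was found in 9 genes (31.0%), against 10.9%. The E2F-type letters can overlap CCAAT, as they do in Ccnb1. By role, TTTGAA was in 5 of 5 cytokinesis genes but in 2 of 7 replication and repair genes. The E2F-type letters were in 5 of those 7 and in 0 of 12 mitotic kinase, checkpoint, kinetochore and motor genes. A match is a string of letters and not a measured site. Ccnd1, Ccne2, Ccna2, Aurkb, Tpx2 and Kif20a had no matched window.

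The 150 bases before the start are printed for 6 genes that the results turn on: Cdk1 and Mcm5 for the replication and entry genes called at 2 weeks within one title code (F14, below), Ccnb1 and Ccnb2 as the mitotic cyclins, Plk1 for the rise at 24 weeks and Cenpf for the fall. Capitals mark the elements, read 5′ to 3′ on the gene's strand.
Cdk1, chr10:69352913-69353062, minus strand: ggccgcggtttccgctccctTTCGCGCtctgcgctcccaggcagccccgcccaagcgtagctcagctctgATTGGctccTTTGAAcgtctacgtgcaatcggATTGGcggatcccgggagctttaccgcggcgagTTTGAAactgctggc
Ccnb1, chr13:100786487-100786636, minus strand: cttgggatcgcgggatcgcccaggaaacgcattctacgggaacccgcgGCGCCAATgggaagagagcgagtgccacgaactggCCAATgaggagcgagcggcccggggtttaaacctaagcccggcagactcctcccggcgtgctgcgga
Ccnb2, chr9:70421555-70421704, minus strand: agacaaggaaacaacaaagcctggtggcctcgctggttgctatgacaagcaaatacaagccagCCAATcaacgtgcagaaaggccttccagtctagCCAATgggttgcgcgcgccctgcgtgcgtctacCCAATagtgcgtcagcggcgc
Plk1, chr7:122159285-122159434, plus strand: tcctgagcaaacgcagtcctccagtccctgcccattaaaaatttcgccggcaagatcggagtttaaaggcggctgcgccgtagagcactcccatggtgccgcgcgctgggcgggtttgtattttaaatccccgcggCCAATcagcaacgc
Mcm5, chr8:75109359-75109508, plus strand: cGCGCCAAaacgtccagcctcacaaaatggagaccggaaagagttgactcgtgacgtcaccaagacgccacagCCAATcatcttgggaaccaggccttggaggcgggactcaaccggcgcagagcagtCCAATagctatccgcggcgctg
Cenpf, chr1:189688087-189688236, minus strand: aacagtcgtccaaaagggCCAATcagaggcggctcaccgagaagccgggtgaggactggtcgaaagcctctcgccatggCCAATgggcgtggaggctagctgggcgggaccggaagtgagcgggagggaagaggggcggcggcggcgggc
Cdk1 holds 2 TTTGAA, 2 CCAAT elements and 1 E2F-type element in this stretch, Ccnb2 holds 3 CCAAT elements, and Mcm5 holds 2 CCAAT elements and 1 E2F-type element. The TTTGAA of Ccnb2, Plk1 and Cenpf lies elsewhere in their 300-base windows. Both Cenpf, lower at 24 weeks, and Plk1, higher at that time, hold CCAAT and TTTGAA letters, while the window of Birc5, also higher then, holds none of the 3 kinds.

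Values are read counts divided by 1 size factor per library, as deposited, and a change is the difference of group means of log2(value + 1), dnOGAh-Tg minus Control, with its standard error from limma. A gene is said to be called, higher or lower, when its Benjamini-Hochberg adjusted p over all tested genes was under 0.05. Reads recovered per library ranged from 22804712 to 50996272. Oga itself was 3983, 2565, 4269, 3852 and 3074 in Control libraries 1 to 5 at 2 weeks and 8608, 6406, 56985, 61206 and 42127 in dnOGAh-Tg 1 to 5. Every dnOGAh-Tg library was above every Control, but dnOGAh-Tg 1 and 2 were only 2.43 and 1.81 times the Control mean, and dnOGAh-Tg 3, 4 and 5 were 16.1, 17.2 and 11.9 times that mean. The titles carry a code of unstated meaning: F11 for the low pair, F13 for dnOGAh-Tg 3 and F14 for dnOGAh-Tg 4 and 5, with Controls 1 and 2 in F11 and Controls 3 to 5 in F14. At 24 weeks Oga was 2521 to 3721 in Control and 32250.00, 21661, 56078, 52593 and 28853 in dnOGAh-Tg 1 to 5, and each Control shared its title code with the dnOGAh-Tg library of the same number. The cardiomyocyte markers Myh6, Tnnt2, Tnni3, Actc1, Myl2, Myl3, Ryr2 and Pln were detected in all 20 libraries. Among the 6 atrial markers, Myl7 stood at 2652 in Control 2 at 2 weeks and at 912 in dnOGAh-Tg 4 at 24 weeks, and at 0 to 13.5 in the other 18 libraries.

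Set against the rest, 3 libraries stood apart in these genes and touch most results below. At 2 weeks Control 5 was the lowest of the 10 libraries in 29 of the 35 genes (82.9%, against 9.87% of all tested genes), with a median log2 deviation of -1.68 from the other Controls. At the same time dnOGAh-Tg 5 was the highest of the 10 in 25 genes (71.4%, against 18.3%). At 24 weeks dnOGAh-Tg 4 was the highest of the 10 in 30 of the 34 genes tested (88.2%, against 11.9%), and its recovered reads, 37844796, were the most at that time.

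**Figure D1:**
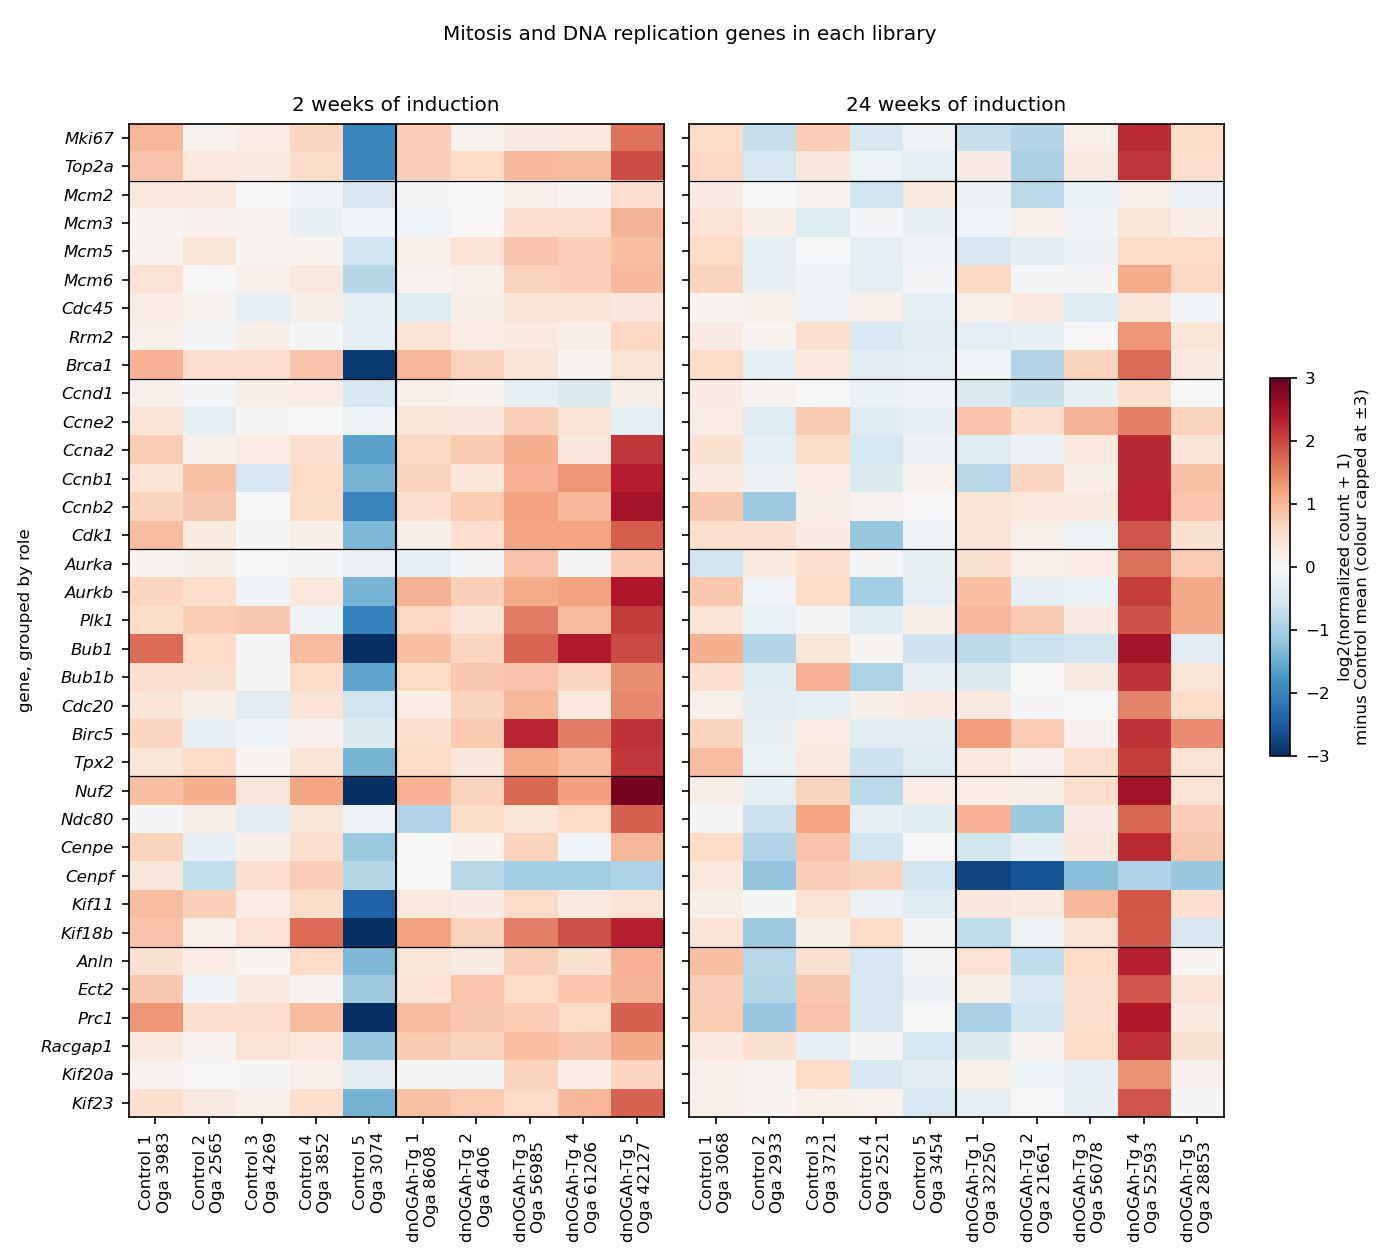
Heat map of log2(normalized count + 1) minus the mean of the 5 Controls of the same time, for the 35 genes (rows, grouped by role) in each library (columns, with the Oga count under each name), with colour capped at 3 in either direction. Control 5 at 2 weeks is the lowest library in 29 genes, dnOGAh-Tg 4 at 24 weeks is the highest in 30 of the 34 tested, and the row of Cenpf is blue in the dnOGAh-Tg columns of 24 weeks.

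At 2 weeks the genes leaned higher in dnOGAh-Tg without any of them being called. Of the 35, all tested, 33 had a change above 0, with a median log2 change of 0.73, while 47.5% of all 14584 tested genes were above 0 with a median of -0.02. limma called 0 of the 35 and 0 of all genes (0%). Oga itself was not called, at 2.79 ± 0.57 (SE, adjusted p = 0.118), although every dnOGAh-Tg library was above every Control in it. An absence of calls at 2 weeks therefore does not show an absence of change. At an unadjusted p under 0.05 limma held 16 of the 35, 15 of them higher, against 24.3% of all genes. edgeR called 0, and DESeq2 called 3, Aurkb, Birc5 and Racgap1, with 6.18% of all genes. In 4 genes, Aurkb, Bub1b, Racgap1 and Kif23, every dnOGAh-Tg library was above every Control, which held for 1.19% of all tested genes. All dnOGAh-Tg libraries were below every Control in 0 of the 35, against 1.96% of all genes, and 3.15% of all genes did not overlap in one direction or the other. The median was 0.46 without Control 5, 0.55 without dnOGAh-Tg 5 and 0.30 without both, when 27 of 35 were above 0. limma called 5 genes when dnOGAh-Tg 1, a library with low Oga for its group, was left out, where 23.2% of all genes were called, and 12 when both F11 dnOGAh-Tg libraries were left out, where 34.1% of all genes were called.

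At 24 weeks 4 of the 34 genes tested were called, 3 higher and 1 lower (11.8%, against 22.5% of all 14676 tested genes). Birc5, Plk1 and Ccne2 were higher and Cenpf was lower. Bub1 did not pass the filter on low values. The median change was 0.49 and 31 of the 34 were above 0, against a median of -0.005 and 49.4% of all genes. No gene had groups that do not overlap, which 16.7% of all tested genes had, 8.49% with dnOGAh-Tg higher and 8.19% with it lower. Without dnOGAh-Tg 4 the median was 0.08, 22 of 34 were above 0 and 2 genes were called, Ccne2 and Cenpf. Within the 5 pairs of libraries that share a title code, 4 of the 34 genes were higher in dnOGAh-Tg in every pair, Ccne2, Plk1, Cdc20 and Kif11, against 17.6% of all tested genes, and Cenpf alone was lower in every pair, against 17.7%. Birc5 was higher in 4 of the 5 pairs.

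**Figure D2:**
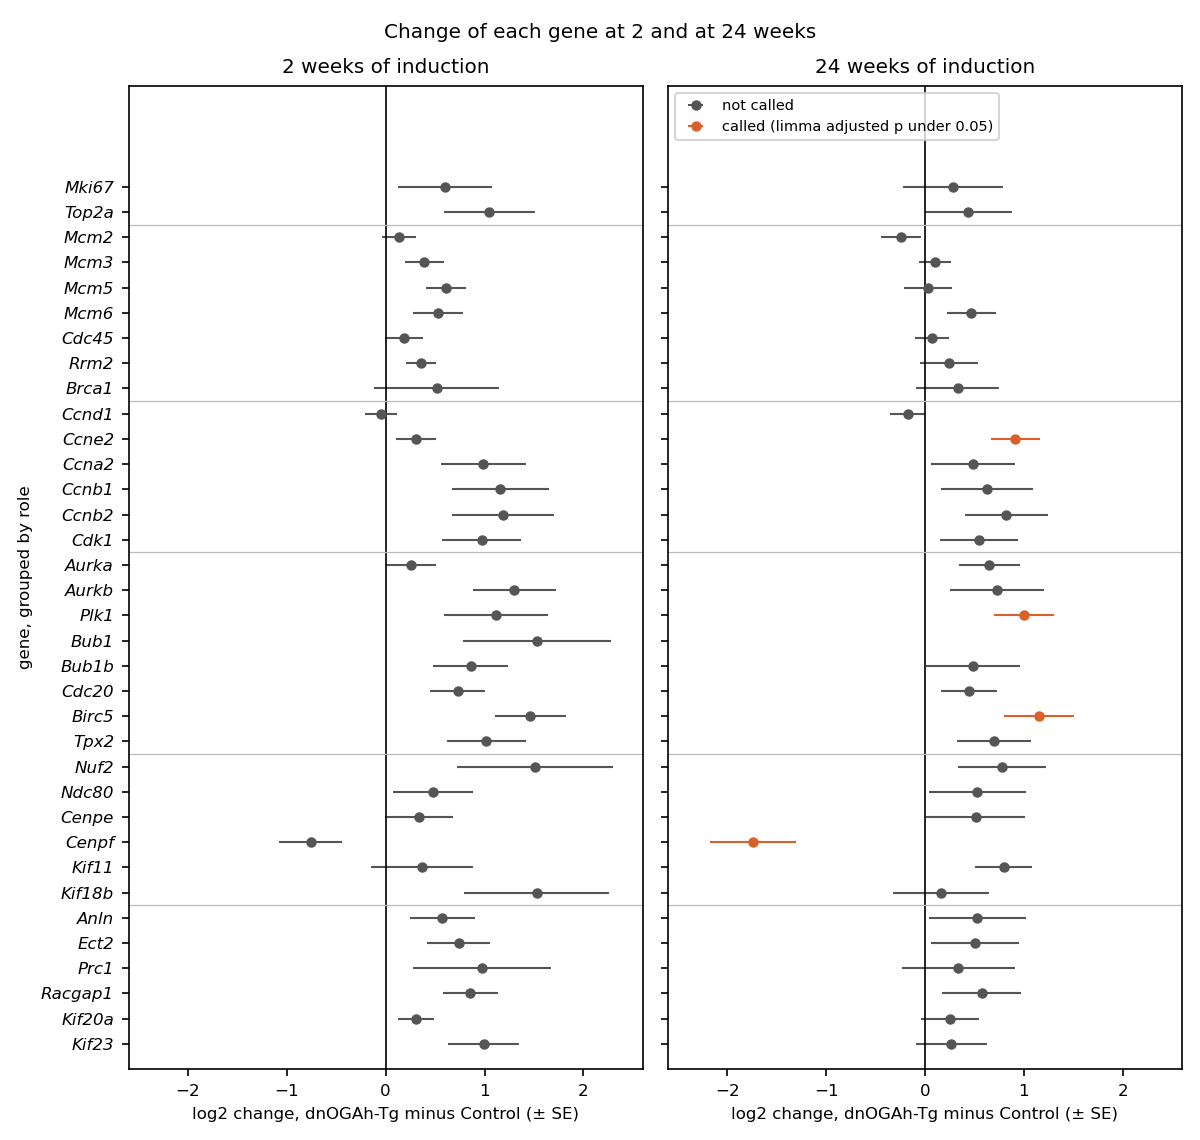
Log2 change, dnOGAh-Tg minus Control, of each gene at 2 weeks (left) and 24 weeks (right), with bars of 1 SE and 5 libraries per group. No gene is called at 2 weeks, and the called genes at 24 weeks are Birc5 at 1.15, Plk1 at 1.00, Ccne2 at 0.91 and Cenpf at -1.74; Bub1 was not tested at 24 weeks.

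Mki67 encodes the coat protein of mitotic chromosomes that serves as the standard marker of cycling cells, and Top2a encodes the topoisomerase that untangles sister DNA. At 2 weeks Mki67 was 303, 162, 178, 238 and 38.3 in Controls 1 to 5 and 252, 163, 181, 189 and 471 in dnOGAh-Tg 1 to 5. The lowest value was that of Control 5, the highest that of dnOGAh-Tg 5, and the other 8 libraries lay between 162 and 303 in both groups. The change was 0.60 ± 0.47 (SE, adjusted p = 0.422), and it was -0.14 without both of those libraries. Top2a was 202, 139, 137, 165 and 26.9 in Control and 188, 171, 220.2, 217 and 437 in dnOGAh-Tg, with the same libraries at the ends, and its change was 1.05 ± 0.46 (SE, adjusted p = 0.191), or 0.54 without Control 5. At 24 weeks Mki67 was 163, 67.2, 184, 78.8 and 100.03 in Control and 68.04, 59.6, 122, 524 and 162 in dnOGAh-Tg, so that dnOGAh-Tg 4 stood above every Control and the other 4 dnOGAh-Tg libraries did not. Its change there was 0.28 ± 0.51 (SE, adjusted p = 0.733), and that of Top2a, 116, 49.8, 119, 442 and 139.9 in dnOGAh-Tg against 69.2 to 152 in Control, was 0.44 ± 0.44 (SE, adjusted p = 0.517), or 0.01 without dnOGAh-Tg 4. Mki67 lies on chromosome 7 from 135291513 to 135318090 in GRCm39.

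The DNA replication and repair genes were Mcm2, Mcm3, Mcm5 and Mcm6, subunits of the replicative helicase, Cdc45, which activates that helicase, Rrm2, the small subunit of ribonucleotide reductase, and Brca1, which acts in recombination repair. All 7 had a change above 0 at 2 weeks, with a median of 0.39, and 6 of 7 at 24 weeks, with a median of 0.10, and none was called at either time. Mcm5 at 2 weeks was 127, 151, 123, 123 and 77.7 in Control and 131, 159, 215, 194 and 221 in dnOGAh-Tg. All dnOGAh-Tg libraries but dnOGAh-Tg 1 were above every Control, the 3 with high Oga by more. The change was 0.61 ± 0.20 (SE, adjusted p = 0.132). Mcm3 was 174, 184, 180.3, 144 and 159 in Control and 158, 169, 234, 242 and 339.7 in dnOGAh-Tg. Its dnOGAh-Tg 1 and 2 lay inside the Control range and its dnOGAh-Tg 3, 4 and 5 lay above it, and the change over all 10 was 0.39 ± 0.19 (SE, adjusted p = 0.231). The changes of the rest were 0.53 ± 0.25 for Mcm6, 0.36 ± 0.15 for Rrm2, 0.18 ± 0.19 for Cdc45, 0.13 ± 0.18 for Mcm2 and, for Brca1, 0.51 ± 0.63. Without Control 5 the change of Mcm6 was 0.31 and that of Brca1 -0.21. Brca1 was 1.04 in Control 5, which is 1 read, and 10.8 to 21.3 in Control at 24 weeks. At 24 weeks Mcm5 was 99.4 to 181 in Control and 84.5 to 178 in dnOGAh-Tg, with a change of 0.03 ± 0.24 (SE, adjusted p = 0.941), and Mcm2 had a change of -0.24 ± 0.20.

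Among the cyclins, 1 gene was called, Ccne2 at 24 weeks. Ccnd1, cyclin D1, which links growth signals to Cdk4 and Cdk6 in G1, was 1803, 1547, 1811, 1871 and 1143 in Control and 1791, 1743, 1352, 1194 and 1818 in dnOGAh-Tg at 2 weeks. The groups overlapped, and the change was -0.05 ± 0.16 (SE, adjusted p = 0.868). At 24 weeks Ccnd1 was 2267, 2022, 1920.4, 1664 and 1783 in Control and 1414, 1211, 1654, 2658 and 1891 in dnOGAh-Tg, with dnOGAh-Tg 4 the highest of the 10, and the change was -0.18 ± 0.18 (SE, adjusted p = 0.517). Ccne2, cyclin E2, which activates Cdk2 at the start of S phase, rose at 24 weeks and lies on chromosome 4 from 11191351 to 11204779. It was 88.4, 58.00, 131, 58.3 and 63.3 in Control and 137, 107, 154, 219 and 123 in dnOGAh-Tg, so that 3 dnOGAh-Tg libraries were above every Control and dnOGAh-Tg 2 and 5 were below Control 3. The group means were 79.8 ± 31.3 and 148 ± 43.5 (SD, n = 5), with a change of 0.91 ± 0.25 (SE, adjusted p = 0.0191). Ccne2 was still called without dnOGAh-Tg 4, at 0.76, and missed the threshold only when Control 4 was left out, at an adjusted p of 0.0515. At 2 weeks it was 139, 84.4, 108, 105 and 93.2 in Control and 135, 132, 171, 142 and 84.3 in dnOGAh-Tg, with dnOGAh-Tg 5 the lowest of all 10 and a change of 0.31 ± 0.20 (SE, adjusted p = 0.337).

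Cdk1, the kinase of mitotic entry, was 68.7, 44.1, 34.1, 40.9 and 13.5 in Control and 40.2, 51.2, 82.1, 82.97 and 128 in dnOGAh-Tg at 2 weeks. Its dnOGAh-Tg 3, 4 and 5 were above every Control and dnOGAh-Tg 1 and 2 were not, and the change was 0.97 ± 0.40 (SE, adjusted p = 0.176), or 0.63 without Control 5. At 24 weeks Cdk1 was 53.3, 51.9, 43.7, 16.2 and 34.2 in Control and 48.3, 40.9, 32.9, 139 and 51.3 in dnOGAh-Tg. Without dnOGAh-Tg 4, whose value was the highest, the change of 0.55 ± 0.40 became 0.21. Ccnb1, cyclin B1, the activating partner of Cdk1, was 13.7, 18.9, 6.59, 15.4 and 3.11 in Control and 16.4, 13.05, 21.5, 26.4 and 54.7 in dnOGAh-Tg at 2 weeks, with a change of 1.16 ± 0.49 (SE, adjusted p = 0.178). It was low in every library, with 3 reads in Control 5, and its highest value was that of dnOGAh-Tg 5. Ccnb2 (1.19 ± 0.52) and Ccna2 (0.99 ± 0.43), the cyclin of S phase and G2, were not called at 2 weeks either, and without Control 5 their changes were 0.69 and 0.58. At 24 weeks the 3 genes had changes of 0.63, 0.82 and 0.49 with adjusted p-values of 0.364, 0.18 and 0.452. Without dnOGAh-Tg 4 those changes were 0.22, 0.46 and 0.04.

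The mitotic kinases and checkpoint genes had the highest median of the role groups at 2 weeks, 1.07, with 8 of 8 above 0. At 24 weeks they held 2 of the 4 calls, 2 of their 7 tested genes (28.6%, against 22.5% of all tested genes). Birc5 encodes survivin, which with Aurora B forms the chromosomal passenger complex that corrects chromosome attachment, and it lies on chromosome 11 from 117740077 to 117746569. At 24 weeks Birc5 was 28.8, 15.3, 20.8, 14.04 and 13.9 in Control and 43.9, 31.1, 19.7, 84.1 and 49.3 in dnOGAh-Tg. All dnOGAh-Tg libraries but dnOGAh-Tg 3 were above every Control, and dnOGAh-Tg 4 was the highest. The group means were 18.6 ± 6.36 and 45.6 ± 24.4 (SD, n = 5), with a change of 1.15 ± 0.35 (SE, adjusted p = 0.0327). The call was lost when any of 6 libraries was left out, Controls 2, 4 and 5 and dnOGAh-Tg 1, 4 and 5, at adjusted p-values of 0.0656 to 0.0749 and changes of 0.90 to 1.13. At 2 weeks Birc5 was 28.7, 15.1, 16.5, 19.98 and 13.5 in Control and 26.6, 32.1, 92.4, 54.7 and 84.3 in dnOGAh-Tg. The low-Oga library dnOGAh-Tg 1 was below Control 1, the other 4 dnOGAh-Tg libraries were above every Control, and the change was 1.46 ± 0.36 (SE, adjusted p = 0.118). That change was 1.19 without Control 5 and dnOGAh-Tg 5.

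Plk1, the polo-like kinase of mitotic entry and spindle assembly, lies on chromosome 7 from 121758662 to 121769096. At 24 weeks it was 19.2, 12.2, 13.5, 10.8 and 16.5 in Control and 28.5, 24.9, 16.9, 55.8 and 32.2 in dnOGAh-Tg. In 4 dnOGAh-Tg libraries it was above every Control, and dnOGAh-Tg 3 was below Control 1. The group means were 14.4 ± 3.37 and 31.7 ± 14.6 (SD, n = 5), with a change of 1.00 ± 0.31 (SE, adjusted p = 0.0318). The call was lost without Controls 2, 3 or 4 or dnOGAh-Tg 1, 4 or 5, at adjusted p-values of 0.0535 to 0.0742, with changes of 0.91 to 1.01, or 0.78 without dnOGAh-Tg 4. It was also lost in a fit of all 20 libraries, at 0.128 with the change still 1.00. At 2 weeks Plk1 was 23.7, 27.7, 28.6, 14.5 and 3.11 in Control and 24.9, 21.1, 47.6, 31.2 and 70.7 in dnOGAh-Tg, with 3 reads in Control 5 and a change of 1.12 ± 0.53 (SE, adjusted p = 0.213), or 0.61 without that library.

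Aurkb, Aurora B, was 28.7, 26.4, 16.5, 22.7 and 6.22 in Control and 37.9, 30.1, 40.1, 42.95 and 100.3 in dnOGAh-Tg at 2 weeks. The groups did not overlap, the lowest dnOGAh-Tg library being dnOGAh-Tg 2, and the change was 1.30 ± 0.42 (SE, adjusted p = 0.131). Tpx2, which activates Aurora A on the spindle, was 64.9, 75.5, 52.8, 67.2 and 18.6 in Control and 75.2, 64.2, 111, 98.6 and 223 in dnOGAh-Tg, with dnOGAh-Tg 1 and 2 inside the Control range and a change of 1.02 ± 0.40 (SE, adjusted p = 0.157), or 0.67 without Control 5. Bub1b, the checkpoint protein BubR1, spanned 9.32 to 44.5 over the Controls and 45.2 to 79.8 over the dnOGAh-Tg libraries, with no overlap and a change of 0.86 ± 0.38, or 0.47 without Control 5. Bub1, its kinase partner, had no read in Control 5, where a count of 0 allows up to 3.11 normalized counts (3 reads, counting error only), and its change of 1.53 ± 0.75 was 0.63 without Control 5 and dnOGAh-Tg 5. Cdc20, the activator of the anaphase-promoting complex, had a change of 0.73 ± 0.28 and Aurka, Aurora A, one of 0.26 ± 0.26 at 2 weeks. At 24 weeks Aurkb (0.73 ± 0.47, adjusted p = 0.301), Tpx2 (0.70 ± 0.38, adjusted p = 0.208) and Aurka (0.65 ± 0.31, adjusted p = 0.157) were not called, and without dnOGAh-Tg 4 their changes were 0.39, 0.36 and 0.40.

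Cenpf was the gene that fell. It encodes a large coiled-coil protein that sits on kinetochores in mitosis, and it lies on chromosome 1 from 189372803 to 189420283. At 24 weeks Cenpf was 531, 188, 719, 688 and 291 in Control and 62.6, 70.3, 176, 223 and 195 in dnOGAh-Tg. The Control values were spread widely, Control 2 lay inside the dnOGAh-Tg range, and dnOGAh-Tg 4, the highest library for most other genes, held only the highest of the low values. The group means were 483 ± 236 and 145 ± 74.1 (SD, n = 5), and the change was -1.74 ± 0.44 (SE, adjusted p = 0.0119). Cenpf remained called in all 22 alternatives run at 24 weeks, with adjusted p-values of 0.00113 to 0.0346 and changes of -2.03 to -1.48. At 2 weeks it was 639, 306, 735, 849.9 and 279 in Control and 517, 287, 250.1, 249 and 266 in dnOGAh-Tg. Controls 2 and 5 lay near the 4 lower dnOGAh-Tg libraries, dnOGAh-Tg 1 stood among the higher Controls, and the change was -0.76 ± 0.32 (SE, adjusted p = 0.179). It was called lower, at -0.95 and an adjusted p of 0.039, when dnOGAh-Tg 1 was left out, and likewise without both F11 dnOGAh-Tg libraries and without all F11 libraries.

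The other kinetochore and motor genes were Nuf2 and Ndc80, which form the microtubule-binding complex of the kinetochore, Cenpe, a kinetochore motor, Kif11, which pushes spindle poles apart, and Kif18b, which trims microtubule ends. At 2 weeks the changes were 1.53 ± 0.73 for Kif18b, 1.51 ± 0.79 for Nuf2, 0.48 ± 0.40 for Ndc80, 0.36 ± 0.51 for Kif11 and 0.34 ± 0.34 for Cenpe, and none was called. Nuf2 and Kif18b had no read in Control 5, and Kif11 stood at 7.25 there against 50.6 to 83.6 in the other Controls. Without Control 5 the changes of Kif18b, Nuf2, Cenpe and Kif11 were 0.74, 0.64, 0.06 and -0.24, and without dnOGAh-Tg 5 that of Ndc80 was 0.15. At 24 weeks Kif11 was 44.7, 37.7, 54.1, 34.6 and 30.4 in Control and 50.5, 48.04, 79.9, 145 and 56.4 in dnOGAh-Tg. Only dnOGAh-Tg 3, 4 and 5 were above every Control, and the change of 0.80 ± 0.29 (SE, adjusted p = 0.0681) passed the threshold with DESeq2 at an adjusted p of 0.024, with a replicate block at 0.0472 and without dnOGAh-Tg 2 at 0.0443.

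The cytokinesis genes were Ect2, which switches on RhoA at the cell equator, Racgap1 and Kif23, which together form centralspindlin, Prc1, which bundles the microtubules of the midzone, Anln, the scaffold of the contractile ring, and Kif20a, a midzone motor. Their summed normalized count was 137 to 447 in Control and 420.5 to 715 in dnOGAh-Tg at 2 weeks, with Control 5 the lowest and dnOGAh-Tg 5 the highest. Racgap1 was 54.9, 46.6, 60.5, 55.4 and 19.7 in Control and 76.9, 71.2, 83.05, 78.1 and 98.03 in dnOGAh-Tg. The groups did not overlap, low-Oga libraries included, and the change was 0.86 ± 0.28 (SE, adjusted p = 0.132). Kif23 was 61.2, 52.9, 48.4, 61.7 and 15.5 in Control and 80.9, 74.3, 65.3, 85.9 and 150.5 in dnOGAh-Tg, again with no overlap, and its change was 0.99 ± 0.36 (SE, adjusted p = 0.143). Without Control 5 and dnOGAh-Tg 5 these changes were 0.51 for Racgap1 and 0.44 for Kif23. Prc1 had a change of 0.98 ± 0.70 that was -0.05 without those libraries, Ect2 one of 0.74 ± 0.32, Anln of 0.57 ± 0.33 and Kif20a of 0.31 ± 0.18. Without Control 5 the changes of Ect2 and Anln were 0.47 and 0.23. At 24 weeks the sum was 204 to 350.5 in Control, 1025 in dnOGAh-Tg 4 and 208 to 301 in the other 4 dnOGAh-Tg libraries, and none of the 6 genes was called.

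Set against Oga, the 2-week dnOGAh-Tg libraries did not form a graded series. In dnOGAh-Tg 1 and 2, with Oga at 8608 and 6406, 5 and 11 of the 35 genes were above every Control, and the median log2 deviation from the Control mean was 0.45 and 0.43. In dnOGAh-Tg 3 and 4, with Oga at 56985 and 61206, 25 and 22 genes were above every Control, with median deviations of 0.77 and 0.60. In dnOGAh-Tg 5, with Oga at 42127, the lowest of the 3 high libraries, 30 genes were above every Control and the median deviation was 1.39. The 3 libraries with high Oga held more genes above the Controls than the pair with low Oga, and the order among the 3 did not follow Oga. The low pair is also the F11 pair, so Oga level and title code cannot be told apart. Controls 1 to 5 were above every other Control in 17, 6, 3, 9 and 0 of the 35 genes. For all tested genes those shares were 17.9%, 23.8%, 18.9%, 10.7% and 28.8%. The Controls' median deviations from the other Controls were 0.61, 0.23, 0.13, 0.47 and -1.68. The deviations of dnOGAh-Tg 1, 2 and 4 were thus no higher than that of Control 1. For all tested genes the shares above every Control were 13.5%, 14.1%, 28.4%, 24.1% and 29.9% in dnOGAh-Tg 1 to 5. With 5 libraries no correlation was computed. At 24 weeks the counts were 5, 4, 4, 30 and 9 of 34 genes in dnOGAh-Tg 1 to 5, and dnOGAh-Tg 3, with Oga at 56078, held 4 while dnOGAh-Tg 4, with Oga at 52593, held 30. As shares these were 14.7%, 11.8%, 11.8%, 88.2% and 26.5%, against 27.8%, 30.5%, 22.6%, 26.0% and 25.7% of all tested genes.

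**Figure D3:**
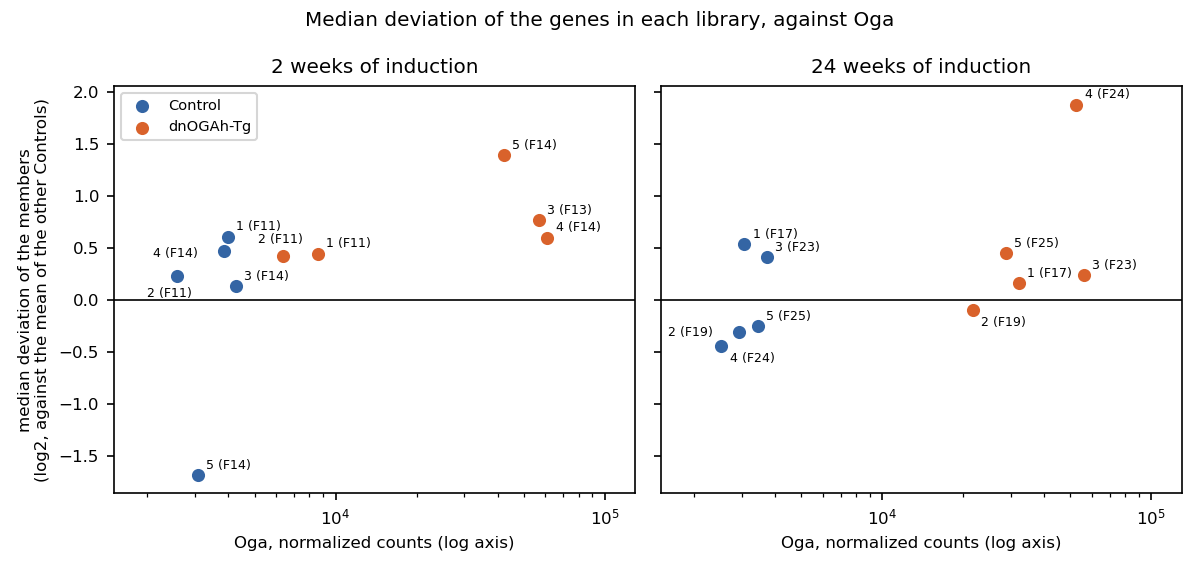
Median over the 35 genes (34 at 24 weeks) of the log2 deviation of a library from the mean of the Controls, leaving the library itself out of that mean, against its Oga count on a log axis; numbers are replicates, with title codes in parentheses. At 24 weeks the libraries with Oga at 56078 and 52593 lie at 0.24 and 1.88, and Control 5 at 2 weeks lies at -1.68.

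At 2 weeks 2 title codes hold both groups, so the change was also taken inside each. Within F14 (Controls 3 to 5 against dnOGAh-Tg 4 and 5) limma called 7 of the 35 genes, all higher, where 4.52% of all tested genes were called higher and 4.63% lower. There 33 of 35 were above 0 with a median of 1.16, against 48.9% of all tested genes with a median of -0.02. Within F11 (Controls 1 and 2 against dnOGAh-Tg 1 and 2) limma called 0 of 35 and 0% of all genes, and edgeR called 0. At an unadjusted p under 0.05 limma held 0 of the 35 and 3.48% of all genes. In F11 15 of 35 were above 0 with a median of -0.05, against 47.9% of all tested genes with a median of -0.01. The called genes were Ccnb1 (2.29 ± 0.60, adjusted p = 0.0421), Aurkb (2.21 ± 0.53, adjusted p = 0.0316), Birc5 (1.98 ± 0.38, adjusted p = 0.0153), Cdk1 (1.91 ± 0.45, adjusted p = 0.0302), Tpx2 (1.85 ± 0.50, adjusted p = 0.0475), Mcm5 (0.96 ± 0.24, adjusted p = 0.0385) and Mcm3 (0.83 ± 0.20, adjusted p = 0.0321). Within F11 the changes of the same genes, in that order, were -0.13, 0.28, 0.47, -0.27, -0.01, 0.06 and -0.13, with SEs of 0.22 to 0.65. The F14 comparison contains both libraries that stood apart: it called 12 genes without Control 5, 11 of them higher and Cenpf lower, where 25.5% of all genes were called, and 0 without dnOGAh-Tg 5, where 0.43% of all genes were called. It called 1, 4 and 3 genes without Control 3, Control 4 and dnOGAh-Tg 4, with 2.87%, 2.74% and 4.44% of all genes.

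The difference between the F14 and F11 changes was tested directly. It was above 0 in 32 of 35 genes with a median of 1.12, against 48.7% of all tested genes with a median of -0.02. limma called it for 0 of the 35, against 0.144% of all tested genes (0.11% with the larger change in F14 and 0.0343% with the smaller). At an unadjusted p under 0.05 limma held 10 of the 35, all with the larger change in F14, against 13.7% of all tested genes in either direction. edgeR called 0 of the 35, against 0.178% of all tested genes. The smallest adjusted p was that of Cdk1, 2.18 ± 0.67 (SE, adjusted p = 0.245). For Oga itself the difference was 2.56 ± 0.36 (SE, limma adjusted p = 0.0359). This value cannot count as a test, because the codes were compared knowing that the F11 dnOGAh-Tg libraries had lower Oga. Each group within a code had only 2 or 3 libraries, and title code and Oga level cannot be told apart.

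**Figure D4:**
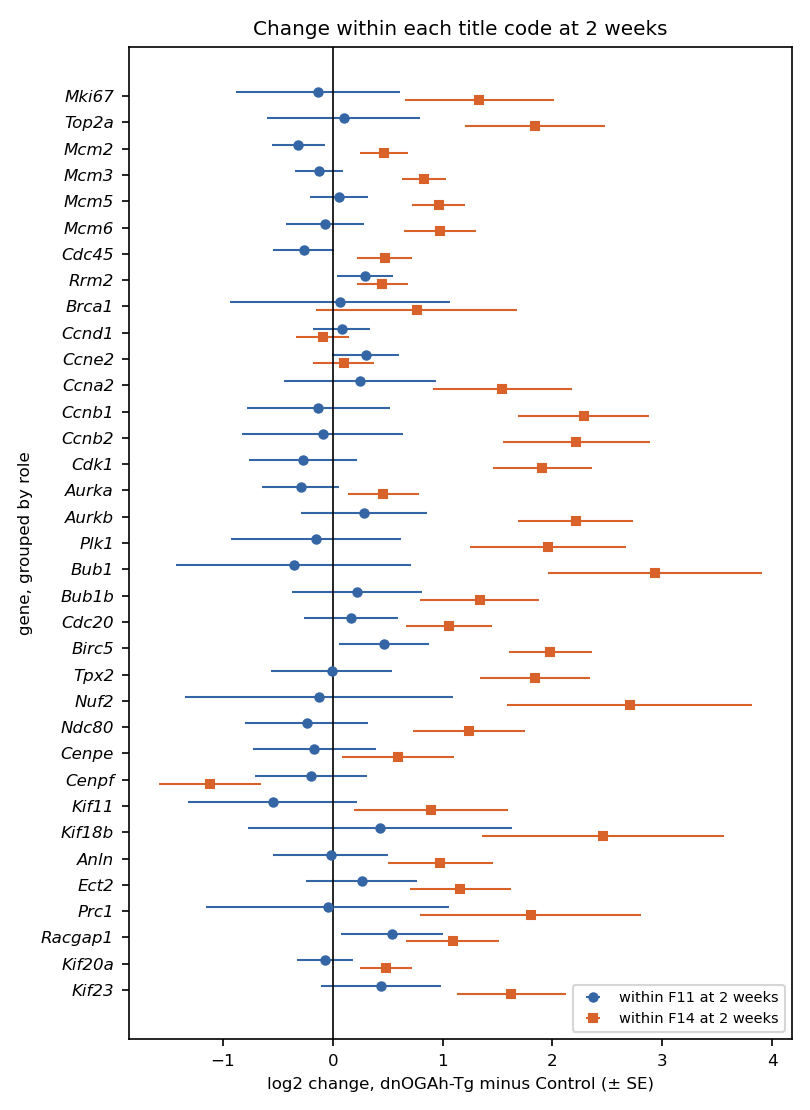
Log2 change of each gene, dnOGAh-Tg minus Control, within title code F11 (circles, 2 against 2 libraries) and within F14 (squares, 2 dnOGAh-Tg against 3 Controls) at 2 weeks, with bars of 1 SE. Changes within F14 are above 0 in 33 genes and those within F11 in 15, and the bars of most genes are wide.

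Between the times, the change at 24 weeks minus that at 2 weeks was below 0 in 29 of 34 genes, with a median difference of -0.30. Of all 14339 genes tested at both times 50.7% were above 0, with a median of 0.006. limma called none of the 34 differences, against 1.76% of all genes (1.07% upward and 0.683% downward). None of the 34 had an unadjusted limma p under 0.05, against 15.4% of all genes. edgeR and DESeq2 called 0 of the 34, against 1.51% and 3.79% of all genes. Ccne2 had the smallest p, with a larger change at 24 weeks by 0.60 ± 0.33 (SE, adjusted p = 0.399), and for Cenpf the difference, more negative at 24 weeks, was -0.98 ± 0.59 (SE, adjusted p = 0.453). The median difference was 0.01, with 18 of 34 genes above 0, without Control 5 of 2 weeks, and -0.57, with 3 above 0, without dnOGAh-Tg 4 of 24 weeks. It was -0.08 with edgeR and -0.09 with DESeq2, with 11 above 0 in each.

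**Figure D5:**
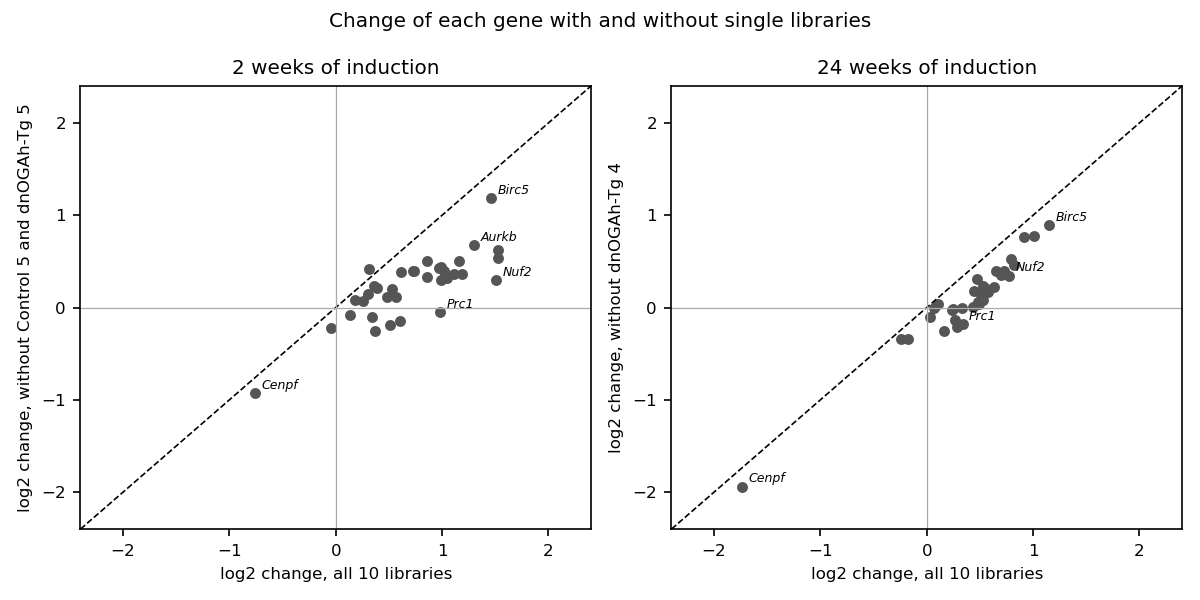
Log2 change of each gene over all 10 libraries (x axis) and without named libraries (y axis): Control 5 and dnOGAh-Tg 5 at 2 weeks (left) and dnOGAh-Tg 4 at 24 weeks (right), with equality as the dashed line. All points but that of Ccne2 at 2 weeks lie below the line, with medians of 0.73 and 0.30 at 2 weeks and 0.49 and 0.08 at 24 weeks; the change of Birc5 without those libraries is 1.19 and 0.90, and that of Cenpf is -0.93 and -1.94.

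Other genes of the same processes were taken from lists. Of 42 other DNA replication genes, 40 were tested at each time. At 2 weeks 32 of 40 were above 0, with a median of 0.26 and 0 called. At an unadjusted p under 0.05 limma held 8 of the 40, against 24.3% of all tested genes. At 24 weeks 31 were above 0, with a median of 0.19. Of the 40, 4 were called higher and 4 lower at 24 weeks (20%, against 22.5% of all tested genes). Higher were Prim1 (1.05 ± 0.19), the primase subunit, Pola2 (0.55 ± 0.10) of the same complex, Chaf1b (1.12 ± 0.30), a histone chaperone subunit, and Tyms (0.54 ± 0.18), which makes thymidylate. Lower were Pola1 (-0.78 ± 0.17), the catalytic subunit of polymerase alpha, Gmnn (-0.77 ± 0.15), which blocks relicensing, and Dut (-0.56 ± 0.10), which clears dUTP, besides Pold1 (-0.41 ± 0.11). Subunits of the polymerase alpha and primase complex were called in opposite directions. Among the pathway lists Dut was the only gene with a called difference between times, -0.92 ± 0.19 (SE, adjusted p = 0.0178). Its values were 594 to 760.3 in Control and 418 to 532 in dnOGAh-Tg at 24 weeks and 502 to 914 and 697 to 1019.6 at 2 weeks. The helicase subunits Mcm4 and Mcm7 and the sliding clamp Pcna had changes of 0.04, 0.03 and 0.25 at 2 weeks and -0.10, 0.04 and -0.11 at 24 weeks, none called.

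Of 56 other mitosis genes, 50 were tested at 2 weeks, with 46 above 0, a median of 0.60 and 0 called. At an unadjusted p under 0.05 limma held 17 of the 50, all higher, against 24.3% of all tested genes in either direction. At 24 weeks 42 were tested, with 37 above 0 and a median of 0.39. Called higher at 24 weeks were Cenpa (0.81 ± 0.16), the centromeric histone, Cdca8 (0.98 ± 0.29), borealin, the partner of survivin and Aurora B, and Tacc3 (0.65 ± 0.21), a spindle protein. Called lower were Ncapd2 (-0.51 ± 0.13), a condensin subunit, and Spc24 (-0.54 ± 0.17), a subunit of the Ndc80 complex. Within F14 at 2 weeks 10 of the 50 were called, all higher, led by Kif2c (2.74 ± 0.51), Cdca8 (1.99 ± 0.41) and Ube2c (1.58 ± 0.33). Of all tested genes 22.5% were called at 24 weeks and 9.15% within F14.

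Among regulators, the list of E2F, Rb, MuvB and growth transcription factors had 23 genes tested at 24 weeks. Myc (0.88 ± 0.27) was called higher and Meis1 (-0.82 ± 0.13), a factor that restrains cardiomyocyte division in mice, lower. These 2 calls were 8.7% of the tested list, against 22.5% of all tested genes. Foxm1, the activator of G2 and mitosis genes, was 71.2, 50.4, 57.2, 59.02 and 21.8 in Control and 49.8, 48.2, 81.2, 57.6 and 100.3 in dnOGAh-Tg at 2 weeks, with a change of 0.41 ± 0.32 (SE, adjusted p = 0.414). Its change was 0.51 ± 0.40 at 24 weeks, where dnOGAh-Tg 4 stood at 120.4 against 30.1 to 41.3 in the other dnOGAh-Tg libraries. E2f1 was 33.7, 31.5, 24.2, 32.7 and 21.8 in Control and 32.2, 42.1, 49.5, 74.2 and 74.1 in dnOGAh-Tg at 2 weeks. Its 3 high-Oga libraries were above every Control and so was dnOGAh-Tg 2, the change over all 10 libraries was 0.85 ± 0.26 (SE, adjusted p = 0.128), and within F14 it was called higher at 1.49 ± 0.30 (SE, adjusted p = 0.0181). The repressors E2f7 and E2f8 had changes of -0.10 ± 0.30 and -0.47 ± 0.18 at 2 weeks and of -0.27 ± 0.43 and 0.03 ± 0.20 at 24 weeks, none called. Mybl2, which encodes B-Myb, was too low to be tested, at 0 to 17.5 over the libraries of 2 weeks. Of 9 tested genes on the list of G1 cyclins and their kinases 2 were called at 24 weeks (22.2%, against 22.5% of all tested genes). Ccne1 (0.90 ± 0.26), cyclin E1, was higher, as Ccne2 was, and Ccnh (-0.27 ± 0.08), cyclin H, was lower. Ccnd2, cyclin D2, had a change of 0.33 ± 0.12 (SE, adjusted p = 0.0621).

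Of 8 CDK inhibitors tested at 24 weeks 5 were called, 3 higher and 2 lower, where 22.5% of all genes were called. Cdkn1a (0.74 ± 0.23), the p21 inhibitor, Cdkn2c (0.58 ± 0.13) and Cdkn2d (0.53 ± 0.11), inhibitors of Cdk4 and Cdk6, were higher, and Cdkn1b (-0.34 ± 0.11) and Cdkn1c (-0.50 ± 0.17) were lower. Cdkn1a at 2 weeks was 745, 959, 351, 505 and 444 in Control and 1012, 716, 1669, 1342 and 1222 in dnOGAh-Tg. The 3 high-Oga libraries were above every Control, dnOGAh-Tg 1 was just above the highest Control, and dnOGAh-Tg 2 lay inside the range. Its change was 1.03 ± 0.27 (SE, adjusted p = 0.118) over all 10, 1.58 ± 0.21 (SE, adjusted p = 0.00323) within F14 and 0.01 ± 0.23 within F11.

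Markers of other cell types differed between the same libraries. At 2 weeks the summed count of 9 macrophage markers, all detected in every library, was 3724 to 5355 in Control, 4681 and 5367 in dnOGAh-Tg 1 and 2 and 8625, 9000.2 and 9396 in dnOGAh-Tg 3 to 5. The lowest sum was that of Control 5, with Control 1 close to it at 3901, and the highest was that of dnOGAh-Tg 5, with dnOGAh-Tg 4 close to it. Within F14 4 of the 9 were called higher, among them Cd68 (1.54 ± 0.18) and C1qc (1.43 ± 0.20), as were 4 of 9 fibroblast markers, among them Postn (2.20 ± 0.41). Of all tested genes 4.52% were called higher within F14 and 4.63% lower. Without dnOGAh-Tg 5 that comparison called 0.43% of all genes. The fibroblast sum was 83942 in dnOGAh-Tg 5 and 38208 to 72246 in Control. In dnOGAh-Tg 4 of 24 weeks, where most of the genes were highest, the macrophage sum was 5886 against 3904 to 7533 in Control. Its atrial sum was 8500.1 against 1149 to 1526 in Control. At 2 weeks Control 2, with an atrial sum of 10686, was above every other Control in 6 of the 35 genes (17.1%, against 23.8% of all tested genes) and below every other Control in 1 (2.86%, against 20.1%). At 24 weeks, where 11.1% of all tested genes were called lower and 11.3% higher, 4 of 8 cardiomyocyte markers were called lower, among them Pln (-1.01 ± 0.13), Ryr2 (-1.26 ± 0.20) and Myh6 (-0.88 ± 0.17). The cardiomyocyte sum was 1781180 to 2325560 in Control and 1223280 to 1702230 in dnOGAh-Tg at that time, without overlap, and 2018690 to 2298620 and 1716010 to 2111770 at 2 weeks. Within F14 2 of those 8 were called lower, against 4.63% of all tested genes. Also at 24 weeks 7 of 8 endothelial markers were called lower, 4 of 9 fibroblast markers higher and 0 of 9 macrophage markers by limma. None of those 9 macrophage markers had an unadjusted p under 0.05, against 34.9% of all tested genes. The part of these cell types in the results was not tested.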

How the data were processed

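RNA sequencing libraries from mouse left ventricle were trimmed with Trim Galore 0.6.6 and cutadapt 2.6 and aligned to GRCm39 with STAR 2.7.3a, and R 4.0.3 and DESeq2 were used, per the submitters' processing notes. The sources used here do not name the read counter, the annotation release or the strand setting. The deposited values are the authors' normalized counts, a signal in which each library's reads per gene are divided by 1 size factor, with a separate table per time. Times were therefore compared only as changes within each table.

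Multiplying back by the size factor gave whole reads within 0.01, which set the depth of each library and allowed count tests. Genes that reached a normalized count of 10 in 5 or more of a table's 10 libraries entered the test, on log2(value + 1) with limma 3.58.1 (trend, Benjamini-Hochberg over all tested genes, threshold 0.05), in R 4.3.3, with groups and replicates taken from the titles. The difference between times used 1 fit of 4 group means, and the changes within title codes used 1 fit of groups by code, in which the F13 library had its own mean. edgeR 4.0.16 and DESeq2 1.42.0 on recovered reads, other pseudocounts (0.5 and 5), filters, size factors, a replicate block and leaving out each library were alternatives. Leaving out Control 5 and dnOGAh-Tg 5 of 2 weeks together was added after seeing the data. So were all alternatives within F14 and within F11, single libraries left out included. The scripts were tested on simulated data. Fold changes on this scale understate those of low genes, and intervals from read counts cover counting error only. Genes that share reads with overlapping or antisense genes cannot be separated without strand.

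The members, gene lists, markers and the comparison of title codes were chosen with earlier results of these data known. All 35 members are reported. From each pathway list the text names at most 6 called genes per time, by smallest p, from each marker list at most 3, and a fixed few regulators. A marker list is not reported here. Promoter windows are RefSeq's, from GRCm38.p6, matched by symbol, and were used only for their sequence.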

Additional observations from a re-analysis of the deposited data

Results flagged for a closer look

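Over 140 groups of 5 libraries, Dixon's test at the 95% level (critical value 0.71) marked 33 values that lay far from the nearest other library of their group; chance alone marks about 1 in 20 groups. The marks cluster in few libraries, and genes that share a library are not independent. Values are normalized counts.

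In dnOGAh-Tg 4 at 24 weeks 20 genes stood far above the other 4 libraries of its group. These were Mki67 at 524, Top2a at 442, Rrm2 at 177, Ccna2 at 246, Ccnb2 at 115, Cdk1 at 139, Aurka at 72.6, Bub1 at 61.2, Bub1b at 111 and Cdc20 at 122. They were also Tpx2 at 204, Nuf2 at 83.4, Cenpe at 106, Kif18b at 45.1, Anln at 198, Ect2 at 66.6, Prc1 at 262, Racgap1 at 172, Kif20a at 151 and Kif23 at 176. Cdk1 in the other 4 reached 51.3 at most, and Nuf2 reached 20.7. Bub1, which was too low to be tested at this time, reached 8.05 in the other 4. Cenpf, Plk1, Birc5 and Ccne2, the called genes of that time, were not among those marked.

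In dnOGAh-Tg 5 at 2 weeks 7 genes were marked as high, Top2a at 437, Ccna2 at 236, Ccnb2 at 159.6, Aurkb at 100.3, Bub1b at 79.8, Prc1 at 174 and Kif23 at 150.5. The highest of the other 4 libraries was 220.2 for Top2a and 43.0 for Aurkb. In dnOGAh-Tg 1 at 2 weeks Cenpf was high at 517, with the next library at 287, and in Control 5 of the same time Kif23 was low at 15.5, with the next at 48.4.

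Among the 24-week Controls, Mcm5 at 181 and Mcm6 at 152 were high in Control 1, Ndc80 was high in Control 3 at 38.5, and Kif23 was low in Control 5 at 34.2.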

How the results depend on the processing

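No called member changed direction under any alternative run, nor did the called pathway genes named above; markers and Pold1 had no alternative. At 2 weeks, where limma called 0 members, pseudocounts of 0.5 and 5, edgeR and TMM factors also gave 0, and DESeq2 called 3, a fit of all 20 libraries 1, the set without the F11 dnOGAh-Tg libraries 12 and the set without all F11 libraries 10. At 24 weeks a filter of 50 left only 17 members tested, of which 2 were called. Leaving out 1 library at a time gave 0 to 5 called members at 2 weeks, 1 to 5 at 24 weeks and 0 to 12 within F14. At 24 weeks the count was 2 without Control 2, 1 without Control 4, 2 without dnOGAh-Tg 1, 4 or 5 and 5 without dnOGAh-Tg 2. The cause of these moves was not tested.

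Over all genes, the called count at 2 weeks was 0 by limma, 865 by DESeq2, 1157 in the fit of 20 libraries, 448 without Control 5, 3360 without dnOGAh-Tg 1, 4879 without the F11 dnOGAh-Tg libraries, 3148 without all F11 libraries and 223 without Control 5 and dnOGAh-Tg 5 together. For the difference between times it was 252 by limma, 533 by DESeq2, 683 without Control 5 of 2 weeks and 99 at the least, without dnOGAh-Tg 1 of 24 weeks. For the difference between title codes it ran from 0 to 146 around 21, and within F14 from 62 without dnOGAh-Tg 5 to 3699 without Control 5, around 1334.

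The replicate numbers were not taken to pair the libraries. At 24 weeks same-numbered libraries share a title code, but the labels do not say what it marks, and the correlations of same-numbered deviations were 0.378, -0.167, -0.212, 0.054 and 0.167 at 2 weeks and -0.017, 0.523, 0.388, -0.147 and 0.061 at 24 weeks. With the replicate block 0 members and 241 genes were called at 2 weeks, 5 members and 3921 genes at 24 weeks, where Kif11 was added, and 0 members and 422 genes for the difference between times.

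With 5 libraries per group, and 2 or 3 within a title code, the SEs of the members' log2 changes reached 0.79 at 2 weeks, 0.57 at 24 weeks, 1.12 within F14 and 1.22 within F11. Changes well above these SEs also went uncalled. At 2 weeks limma did not call Nuf2 at 1.51 ± 0.79 or Oga itself at 2.79 ± 0.57. The smallest change that could be detected was not computed.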

Other observations

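The list of 16 p53 target genes, all tested, had 4 called higher at 24 weeks, where 11.3% of all tested genes were called higher. They were Gadd45b (0.90 ± 0.29 on the log2 scale, SE), a stress-induced regulator of DNA repair, Phlda3 (0.78 ± 0.18), which restrains Akt, Zmat3 (0.49 ± 0.10) and Aen (0.48 ± 0.10), a nuclease. At 2 weeks 0 of 16 were called by limma and 5 had an unadjusted p under 0.05, against 24.3% of all tested genes. Within title code F14 at 2 weeks 3 were called higher, Gadd45g (2.21 ± 0.31), Phlda3 (1.80 ± 0.34) and Gadd45b (1.24 ± 0.27), and Sesn1 (-0.60 ± 0.16) was called lower, where 4.52% of all genes were called higher and 4.63% lower. Without dnOGAh-Tg 5, 0.43% of all genes were called within F14. Phlda3 and Gadd45b were the genes called in both. Phlda3 was 298, 277, 202, 351 and 236 in Controls 1 to 5 and 532, 591, 308, 438 and 480.1 in dnOGAh-Tg 1 to 5 at 24 weeks.

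Markers of further cell types were read beside the division genes. At 24 weeks 11.1% of all tested genes were called lower and 11.3% higher. At that time 4 of 4 tested erythroid markers were called lower, as were 2 of 8 mural markers, with 1 mural marker higher. By limma 0 of 5 adipocyte, 0 of 4 Schwann cell, 0 of 4 epicardial and 0 of 3 neutrophil markers were called. Of these 4 lists without a call, only the epicardial list had a gene at an unadjusted p under 0.05, and it had 1. Of all tested genes 34.9% were under that p.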
